A study of Drosophila melanogaster with 8 samples.

Results

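The genes described here are those of chromosome 4 of *Drosophila melanogaster*, followed in RNA-seq libraries of sorted brain cells. They were taken by position: all reference genes placed on chromosome 4 of the dm6 genome, apart from *ey*, *toy*, *mGluR*, *zfh2* and genes whose names mark them as ribosomal protein genes, long noncoding RNAs or antisense RNAs. This left 77 of the 105 chromosome 4 genes and of 17137 reference genes in all. Of the 77, 74 code for proteins, 2 are annotated as noncoding RNAs and 1 is a small nucleolar RNA. The first begins at position 879 of chromosome 4 and the last ends at position 1271759.

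Chromosome 4 is the smallest chromosome of the fly. It crosses over little or not at all, is packed with repeats, and most of its length carries the marks of heterochromatin, among them methylated histone H3 and the protein HP1a, yet most of its genes are transcribed. The protein Pof coats the transcribed genes of chromosome 4, and the chromosome is thought to descend from a former X. Many of its genes act in neurons: transcription factors, guidance receptors, ligands of the TGF-beta family and parts of the release machinery.

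The study sorted *fruitless*-expressing (fru+) cells and the remaining (fru-) cells from brains of both sexes, to ask how the male protein FruM changes gene regulation. There were 4 groups of 2 libraries each: male fru+, female fru+, male fru- and female fru-. All 8 libraries came from adults of 2 to 7 days in a *w1118* background that carried *UAS-mCD8-GFP*, *MB247-Gal80* and *Fru-GAL4*. The paper's fly list gives each of them as heterozygous, with *Fru-GAL4* over a balancer chromosome. The fru- cells thus carry the same transgenes and were sorted by their lack of GFP signal. Optic lobes were removed before dissociation. *Fru-GAL4* reports the P1 promoter of *fruitless*, and *MB247-Gal80* blocks the reporter in Kenyon cells of the mushroom body, so Kenyon cells that transcribe *fruitless* fall into the fru- pool. Each library pooled the cells of many brains, and in each replicate both sexes went through the sorter in 1 session.

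Levels are given in TPM (the share of transcripts in a library, corrected for their length) and differences on the scale log2(TPM + 1), which understates the change of low genes. A gene was tested where it reached 1 TPM in at least 2 of the 8 libraries, and limma's test was called at a Benjamini-Hochberg adjusted p under 0.05 over all 10111 genes tested. The libraries held 3.16 to 4.93 Gb of aligned bases. *fru* itself had 56.2 and 63.1 TPM in male fru+ and 71.6 and 61.0 TPM in female fru+ libraries, against 8.19 and 7.39 TPM in male fru- and 3.75 and 15.1 TPM in female fru- libraries. The summed level of 7 glial markers was 500.0 to 818 TPM in fru+ libraries, against 936 to 2373 TPM in fru- libraries, so that the groups did not overlap. The sums of 6 Kenyon cell markers overlapped, with 701 to 1149 TPM in fru+ and 1000 to 1207 TPM in fru- libraries, while 3 of the 6 were lower in every fru+ library than in any fru- library, among them *prt* with 12.7 to 17.0 TPM against 29.2 to 54.3 TPM. Those of 5 neuronal markers overlapped too, with 2326 to 3617 TPM in fru+ and 1991 to 3656 TPM in fru- libraries. The sums of 4 hemocyte markers were 3.24 to 31.4 TPM against 4.84 to 15.8 TPM, most of it from *Nplp2*, and those of 5 fat body markers 1.94 to 8.30 TPM against 4.53 to 15.8 TPM, most of it from yolk protein genes, while *He* and *Lsp2* were at or near 0. In bulk RNA of this kind, fewer cells of a type and less RNA per cell cannot be told apart.

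Nearly all chromosome 4 genes were detected in these brain cells, and their levels were higher than those of genes on the other chromosomes. Of the 77 genes, 72 (93.5%) passed the filter. With the same classes of names left out, the share was 58.6% on 2L, 61.1% on 2R, 62% on 3L, 64.9% on 3R and 69.1% on X. The share at 1 TPM or more was 89.6% to 94.8% per library, against 56.5% to 57.9% of genes of the other autosomes after the same classes of names were left out. The 5 genes that did not pass were *JYalpha*, listed at 0 TPM in all 8 libraries, *yellow-h* (at most 0.773 TPM), *bt*, which codes for the muscle protein projectin (at most 0.129 TPM), and the microRNA genes *mir-9385* and *mir-954* (at most 1.05 and 1.64 TPM).

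The median chromosome 4 gene that passed had 79.3 and 82.5 TPM in the male fru+ libraries, 92.9 and 68.0 TPM in the female fru+ libraries, 106 and 97.7 TPM in the male fru- libraries and 89.8 and 96.4 TPM in the female fru- libraries. The 8288 tested genes of the other autosomes had medians of 20.2 to 28.0 TPM. On the log2 scale the chromosome 4 median lay 1.92 and 1.78 above the other autosomes in male fru+, 2.08 and 1.62 in female fru+, 2.17 and 1.77 in male fru-, and 1.90 and 1.91 in female fru- libraries, or 1.89 ± 0.175 (SD, n = 8 libraries) in all. The offset was present in every library, and the values of the 4 groups overlapped. It depended on which genes were compared: it was 1.12 among genes with a mean above 10 TPM, 1.25 when the chromosome 4 genes left out by name were put back, and 1.71 when the same classes of names were left out on the other autosomes. It is a description of these genes, with no test, since genes are not replicates. The plot of levels by library shows this offset.

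**Figure D1:**
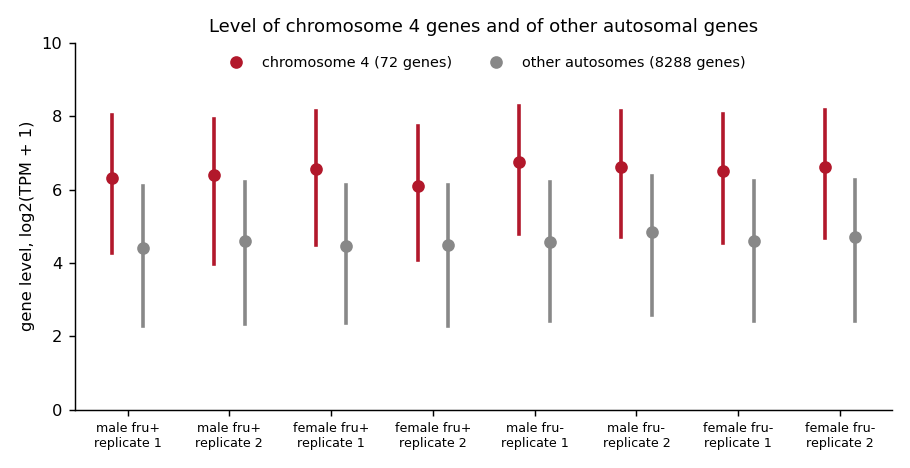
Median (points) and quartiles (bars) of log2(TPM + 1) over 72 chromosome 4 genes and 8288 genes of the other autosomes in each library. The chromosome 4 median lies 1.62 to 2.17 above that of the other autosomes in every library.

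The protein-coding genes of chromosome 4 were also longer than those of the other autosomes. Among tested genes, the median span was 9754 bp for 71 chromosome 4 genes, against 2756.5 bp for 7260 genes of the other autosomes, and the median number of exons was 11 against 5. The exonic bases followed, with 4376 against 2057.5. TPM already divides by transcript length, and the relation of length and level was not tested. Of the 72 tested genes, 26 overlap another gene of the chromosome, and since the libraries keep no strand, reads in a shared stretch cannot be told apart.

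Among the 77 genes, the most abundant were genes of energy metabolism, of the synapse and of signaling. The ribosomal protein gene *RpS3A* of chromosome 4, left out by name and not ranked here, had 1377 to 1927 TPM. *ATPsynbeta*, the beta subunit of the mitochondrial ATP synthase, had by far the highest level, with a mean of 3026 TPM over the 8 libraries. *ND-49*, a subunit of complex I of the respiratory chain, followed with 875 TPM, and *dpr7*, a surface protein of the Dpr family that pairs neurons, with 717 TPM. The next were *CG32017* (666 TPM), the calcium/calmodulin-dependent kinase *CaMKII* (661 TPM), the nucleic acid binding protein gene *Pur-alpha* (657 TPM), the calsyntenin gene *Cals* (636 TPM), the small GTPase gene *Arl4* (598 TPM), the phosphoinositide kinase gene *PIP4K* (565 TPM) and *CG1909* (535 TPM). At the low end of the genes tested stood *CG32006* (0.582 TPM), *ci*, the transcription factor of the Hedgehog pathway (1.05 TPM), and *Ekar*, a glutamate receptor subunit gene (1.72 TPM). Summed over the 77 genes, chromosome 4 gave 14505 to 16815 TPM in each library.

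Between fru+ and fru- cells, averaged over both sexes, the genes that changed were transcription factors and a ligand, and all were lower in fru+ cells. *Sox102F* and *fd102C*, which lie next to each other, and *myo* fell, 3 of 72 genes (4.17%), and none rose. Over all 10111 genes 5.29% were called, 3.8% as lower and 1.49% as higher, so that the share of chromosome 4 genes called is close to the background. At an unadjusted p under 0.05, 20 chromosome 4 genes were lower and 2 were higher, or 30.6%, against 23.5% of all genes (17.5% lower and 6.05% higher).

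*Sox102F* codes for an HMG-box transcription factor of the SoxD group. It had 12.9 and 13.2 TPM in male fru+ and 15.8 and 11.6 TPM in female fru+ libraries, against 31.6 and 33.9 TPM in male fru- and 29.2 and 29.1 TPM in female fru- libraries. The highest fru+ library lay well below the lowest fru- library in both sexes. The difference was -1.16 ± 0.17 (SE) on the log2 scale, or 0.449-fold, with an adjusted p of 0.00641 by limma. The call held under every alternative, with an adjusted p of at most 0.0452.

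*fd102C*, a forkhead transcription factor gene, lies upstream of *Sox102F* on the same strand, with 2592 bp between them (chr4:836986-844529, with *Sox102F* at chr4:800436-834393, dm6, minus strand). It had 31.0 and 25.6 TPM in male fru+ and 38.2 and 28.0 TPM in female fru+ libraries, against 59.6 and 58.3 TPM in male fru- and 59.2 and 82.6 TPM in female fru- libraries. Again the groups did not overlap, and 1 female fru- library stood above the other 3 fru- libraries. The difference was -1.06 ± 0.17 (SE), with an adjusted p of 0.00992. The adjusted p was over the threshold without male fru+ replicate 2 (0.0545), male fru- replicate 1 (0.0508) or male fru- replicate 2 (0.0555), and with no filter on low values (0.0652).

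*myo* codes for myoglianin, a ligand of the TGF-beta family known in flies from muscle and from glia that act on mushroom body neurons. It was a low gene, with 4.62 and 2.98 TPM in male fru+ and 5.13 and 3.41 TPM in female fru+ libraries, against 10.5 and 8.08 TPM in male fru- and 8.53 and 8.61 TPM in female fru- libraries. The groups did not overlap. The difference was -0.997 ± 0.24 (SE), with an adjusted p of 0.0452 by limma, and the call held with the replicate block. It did not hold when any 1 library was left out, under the other scaling (0.0758) or with a pseudocount of 0.1 (0.0524). Nor did it hold with no filter on low values or with no variance trend. The other TGF-beta ligands of the chromosome, *Actbeta* (-0.30, adjusted p = 0.286) and *mav* (-0.12, adjusted p = 0.816), did not pass the limma test. The glial markers were also lower in fru+ libraries, as given above, and their part in the *myo* result was not tested.

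**Figure D2:**
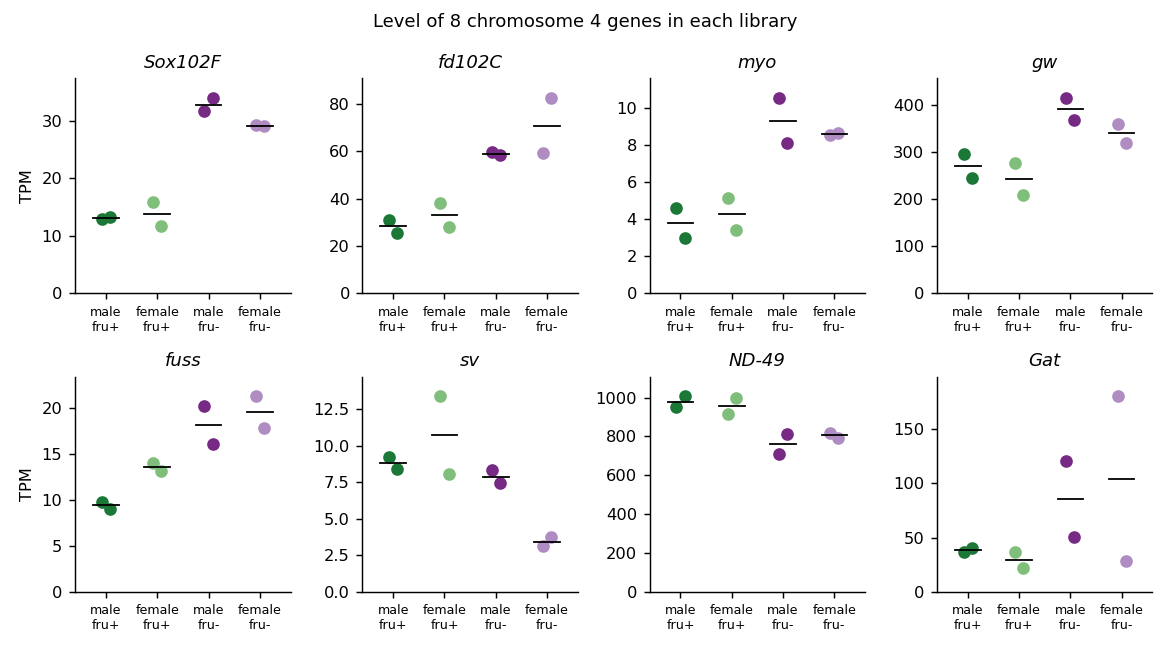
TPM of 8 chromosome 4 genes in each library (points, 2 per group) with group means (lines). The first 5 genes and *ND-49* show no overlap between the 4 fru+ and the 4 fru- libraries; *sv* is low in female fru- cells, and *Gat* is uneven among fru- libraries.

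A few more genes stood near the threshold. *gw* codes for the GW182 protein that acts in silencing by microRNAs. It had 296 and 245 TPM in male fru+ and 276 and 208 TPM in female fru+ libraries, against 414 and 367 TPM in male fru- and 359 and 320 TPM in female fru- libraries, a difference of -0.51 ± 0.13 (SE) with an adjusted p of 0.0523. *fuss*, a member of the Ski/Sno family of transcriptional corepressors, had 9.76 and 9.07 TPM in male fru+ and 14.0 and 13.1 TPM in female fru+ libraries, against 20.3 and 16.1 TPM in male fru- and 21.3 and 17.9 TPM in female fru- libraries (-0.69 ± 0.18 SE, adjusted p = 0.0614). In both genes every fru+ library was below every fru- library. *fuss* overlaps *lncRNA:sphinx* and an antisense RNA on the opposite strand. *Slip1*, which codes for a protein that binds the Slowpoke potassium channel, differed by -0.47 ± 0.14 (SE, adjusted p = 0.0787), with 120 to 165 TPM in fru+ against 170 to 209 TPM in fru- libraries.

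Since both sexes of a replicate shared a sort session, the comparison was also run with the replicate as a block. The number of chromosome 4 genes called was then 6, all lower: *gw* (adjusted p = 0.0302), *fuss* (0.0464) and *pan*, the TCF of the Wnt pathway (-0.51, adjusted p = 0.0485), joined the 3, and 5.86% of all genes were called. One library could move the count: it was 1, *Sox102F*, without male fru+ replicate 2, male fru- replicate 1 or male fru- replicate 2, where 1.47%, 1.49% and 1.1% of all genes were called, and 5 without female fru+ replicate 1, where 5.02% were.

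The genes with higher values in fru+ cells were few. *ND-49* had 949 and 1006 TPM in male fru+ and 915 and 996 TPM in female fru+ libraries, against 708 and 812 TPM in male fru- and 817 and 794 TPM in female fru- libraries. *ATPsynbeta* had 3244 and 3242 TPM in male fru+ and 3052 and 3383 TPM in female fru+ libraries, against 2711 and 2851 TPM in male fru- and 2978 and 2747 TPM in female fru- libraries. These were the only 2 tested genes of the chromosome with every fru+ library above every fru- library. Their differences of 0.31 ± 0.10 and 0.19 ± 0.10 (SE) did not pass the limma test (adjusted p = 0.114 and 0.292). *ND-49* passed when the libraries were scaled by median of ratios (0.44, adjusted p = 0.0461), and the split of calls was then 1 higher and 2 lower. *ATPsynbeta* overlaps *CG11076* on the opposite strand.

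Of the 72 genes, 18 (25%) did not overlap between the 4 fru+ and the 4 fru- libraries, 16 with fru+ below and 2 with fru+ above. Over all genes tested the share was 15.5%, with 11.6% below and 3.97% above. Besides the genes above, those below were *4E-T*, *CG32850*, *CG33521*, *CaMKI*, *Hcf*, *PIP4K*, *PlexB*, *apolpp*, *dati* and *lgs*. Their roles are varied: *PlexB* is a receptor for semaphorins, *lgs* a cofactor of beta-catenin, *Hcf* a chromatin cofactor and *4E-T* a binder of the cap protein eIF4E. *apolpp*, the precursor of the lipid carrier of the blood, which the fat body makes, had 1.52 to 2.01 TPM in fru+ against 2.51 to 3.82 TPM in fru- libraries, and it overlaps *Zyx*, a gene of far higher level (mean 274 TPM), on the opposite strand. *PIP4K* and *CG33521* overlap each other, as do *CG32850* and *PMCA*.

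The genes as a group leaned to the fru- side. The median difference over the 72 genes was -0.26, against -0.12 over the other autosomes, and 56 of the 72 differences were negative, against 63.8% of all genes. The median was -0.14 in the first sort session and -0.32 in the second, against -0.09 and -0.16 on the other autosomes. Without female fru+ replicate 2, the chromosome 4 median minus that of the other autosomes was -0.05, against -0.14 with all libraries. With median-of-ratios scaling, which moves the median of all genes from -0.12 to about 0, 48 of 72 were negative, and the chromosome 4 median lay 0.12 below that of all genes, against 0.13 below it before scaling. Among genes that were both as long and as abundant as the median chromosome 4 gene or more, a setting chosen after the data were seen, the medians were -0.13 for 16 chromosome 4 genes and -0.09 for 285 genes of the other autosomes. The chromosome 4 median minus that of the other autosomes was -0.04 there, -0.11 by span alone and -0.13 by level alone. The settings by span or level alone were also chosen after the data were seen.

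**Figure D3:**
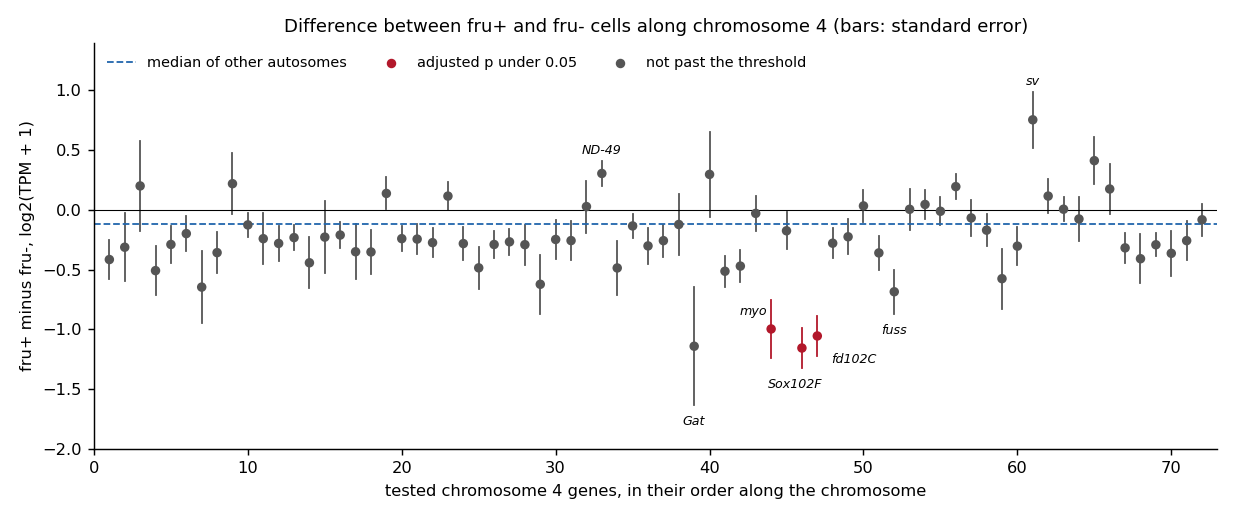
Difference between fru+ and fru- cells, averaged over the sexes, on the log2(TPM + 1) scale for the 72 tested genes in their order along chromosome 4, with standard errors. Most points lie under 0, and the dashed line is the median of the other autosomes (-0.12). The 3 genes past the threshold lie close in gene order in the middle of the chromosome. In position, *myo* lies apart, with 82460 bp between it and the next tested gene, *MED26*.

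Along the chromosome, the medians of the first, middle and last 24 tested genes were -0.26, -0.28 and -0.08. The 3 genes called all lay in the middle stretch. *gw* and *Slip1* are also neighbours, 517 bp apart. Between all neighbours, the fru difference of a gene and of the next had a Pearson r of 0.09 over 71 pairs on chromosome 4 and of 0.13 over 7524 pairs on the other autosomes, where pairs share libraries and often levels, and no test was made.

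By role, the 15 transcription factors and cofactors held 2 of the 3 calls. Of these 15, 2 fell (*Sox102F* and *fd102C*), where 5.29% of all genes were called, none rose, and 13 did not pass the test, with a median of -0.32 against -0.12 for all genes. At an unadjusted p under 0.05, 7 were lower and 1 was higher, against 17.5% and 6.05% of all genes. The most abundant of them, *bip2* (TAF3) with a mean of 248 TPM and the Polycomb group gene *pho* with 144 TPM, differed by -0.29 and -0.32 (adjusted p = 0.330 and 0.167). The 1 with a positive difference was *sv*, the Pax2 homologue of the fly (0.75 ± 0.23 SE, adjusted p = 0.0919).

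None of the 9 genes of synaptic release and transport passed the limma test, and their median was -0.07. At an unadjusted p under 0.05 there were 2 of the 9, against 23.5% of all genes. *CaMKII* had 528 to 844 TPM in fru+ against 597 to 761 TPM in fru- libraries, and *Cals* 575 to 810 TPM against 513 to 733 TPM, so that both overlapped. *Gat*, the GABA transporter, which in flies sits in astrocyte-like glia, had the widest error of the 9: 36.9 and 40.7 TPM in male fru+ and 37.1 and 22.3 TPM in female fru+ libraries, against 120 and 50.4 TPM in male fru- and 180 and 28.4 TPM in female fru- libraries (-1.14 ± 0.49 SE, adjusted p = 0.201). The astrocyte marker *alrm* had 24.4 and 29.8 TPM in male fru+ and 15.4 and 17.7 TPM in female fru+ libraries, against 144 and 90.0 TPM in male fru- and 188 and 33.1 TPM in female fru- libraries. The same 2 fru- libraries, replicate 1 of each sex, were highest for both genes, and the part of glia in the *Gat* result was not tested. Without female fru- replicate 2, *Gat* passed in the comparison averaged over the sexes and in that of female cells.

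The list for axon guidance and the cell surface held 11 genes and was drawn broadly, with the adaptor gene *Crk* and the muscle gene *bt* among them. Of the 11, 10 were tested and none passed, with a median of -0.24. At an unadjusted p under 0.05, 2 of the 10 were lower, against 17.5% of all genes. The most abundant, *dpr7* and the adaptor gene *Crk*, differed by -0.21 and -0.23 (adjusted p = 0.266 and 0.206), and *PlexB* by -0.42 (adjusted p = 0.166). *Eph*, a receptor tyrosine kinase gene, and its ligand gene *Ephrin* differed by -0.26 and -0.49 (adjusted p = 0.280 and 0.231). Of the 6 genes of translation, RNA and protein turnover none passed (3 lower at an unadjusted p under 0.05, against 17.5% of all genes). *Pur-alpha* and *Rad23* differed by 0.03 and -0.24 (adjusted p = 0.955 and 0.206). Of the 5 kinase, GTPase and phosphoinositide genes none passed (1 lower at an unadjusted p under 0.05, against 17.5% of all genes). *Arf102F*, a small GTPase gene of vesicle traffic, had 499 to 551 TPM in fru+ against 472 to 551 TPM in fru- libraries, and *PIP4K* had 487 to 533 TPM against 614 to 635 TPM (-0.29 ± 0.10 SE, adjusted p = 0.113).

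The chromatin proteins known to act on chromosome 4 are encoded on other chromosomes. None of the 11 listed passed the limma test between fru+ and fru- cells (1 at an unadjusted p under 0.05, against 23.5% of all genes). Their median was -0.14, close to the -0.12 of all genes. *Pof* had 26.9 to 36.5 TPM in fru+ against 30.0 to 38.4 TPM in fru- libraries (-0.23, adjusted p = 0.423). The gene for HP1a had 301 to 356 TPM against 329 to 394 TPM (-0.17, adjusted p = 0.342). *Kdm4A*, a histone demethylase gene, had the smallest p of the list, with 20.3 to 39.1 TPM against 39.4 to 55.0 TPM (-0.60, adjusted p = 0.123).

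Within each sex alone, no chromosome 4 gene passed the limma test between fru+ and fru- cells. In males 0 of 72 passed, against 0.514% of all genes, and 13 had an unadjusted p under 0.05, 12 of them lower and 1 higher, or 18.1% against 13.4% of all genes (9.65% lower and 3.74% higher). The smallest p belonged to *Sox102F* (-1.26 ± 0.24 SE, adjusted p = 0.0590), which passed when only the 4 male libraries were fitted (0.0448) or when either female fru- library was left out. It was followed by *fd102C* (-1.04, adjusted p = 0.108) and *fuss* (-0.87). In females 0 of 72 passed, against 0.653% of all genes, and 7 had an unadjusted p under 0.05, 6 of them lower and 1 higher, or 9.72% against 14.7% of all genes (10.6% lower and 4.16% higher). The genes with the smallest p were *fd102C* (-1.07, adjusted p = 0.0800), *Sox102F* (-1.05, adjusted p = 0.0881) and *sv* (1.37 ± 0.33 SE, adjusted p = 0.102). The medians over the 72 genes were -0.25 in males and -0.18 in females, against -0.14 and -0.11 on the other autosomes. The female median minus that of the other autosomes was -0.08 with all libraries, 0.02 without female fru+ replicate 2 and -0.24 without female fru+ replicate 1.

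*sv* differed most between the sexes in this respect, although not past the test. It had 9.22 and 8.40 TPM in male fru+ and 13.4 and 8.07 TPM in female fru+ libraries, against 8.36 and 7.43 TPM in male fru- and 3.15 and 3.74 TPM in female fru- libraries. Both female fru- libraries were below the other 6. The interaction of sex and fru status was -1.22 ± 0.46 (SE), with an unadjusted p of 0.0252 and an adjusted p of 0.999. It was the 1 chromosome 4 gene with an unadjusted p under 0.05 there, against 2.34% of all genes, and no gene of the 10111 passed (0%). *sv* overlaps *Cals* on the opposite strand, whose mean level was 636 TPM against 7.72 TPM of *sv*, and how far reads from the shared stretch enter the level of *sv* was not tested.

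Between males and females, chromosome 4 genes showed no change past the test, whether in fru+ or in fru- cells. In fru+ cells 0 of 72 genes passed the limma test, against 0.089% of all genes, and 0 had an unadjusted p under 0.05, against 4.24%. The shares of all genes include the X. On the other autosomes alone 0% passed in fru+ cells, 0.0121% in fru- cells and 0.0362% averaged over both. There 3.08%, 3.95% and 4.87% had an unadjusted p under 0.05, so calls between the sexes were rare on those autosomes too. In fru- cells 0 of 72 passed, against 0.109% of all genes, and 2 had an unadjusted p under 0.05, against 4.99%, both higher in males: *sv* (1.00 ± 0.33 SE, adjusted p = 0.867) and *RhoGAP102A* (0.75 ± 0.32 SE, adjusted p = 0.928). The next by p there was *Rad23*, which brings proteins to the proteasome (-0.25). Averaged over fru+ and fru- cells 0 passed, against 0.227%, and 1 had an unadjusted p under 0.05, against 6.71%. That gene was *RhoGAP102A* (0.55 ± 0.23 SE, adjusted p = 0.728), with 19.3 and 13.8 TPM in male fru+ and 26.1 and 22.7 TPM in male fru- libraries, against 16.0 and 9.84 TPM in female fru+ and 11.5 and 17.3 TPM in female fru- libraries. The next by p were *dati* (0.39), the peroxisomal transporter gene *ABCD* (-0.38), the zinc transporter gene *Zip102B* (-0.21), *sv* (0.39) and *fuss* (-0.29), with adjusted p-values of 0.744 to 0.834. The sexes overlapped in all 72 genes. Over all genes, those of the X included, 3.23% did not overlap between the 4 male and the 4 female libraries.

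A missed threshold with 2 libraries a group leaves room for differences, and the intervals give their size. Averaged over fru+ and fru- cells, the 95% interval of the male minus female difference lay within 1 log2 unit of 0 for 67 of the 72 genes and within 0.5 for 45. In fru+ cells alone it lay within 1 for 62 genes and within 0.5 for 18, and in fru- cells for 61 and 17. The genes with the smallest p in fru+ cells were *unc-13*, which primes synaptic vesicles (-0.40), *fuss* (-0.48) and the zinc finger gene *dati* (0.42), all with an adjusted p of 1.

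**Figure D4:**
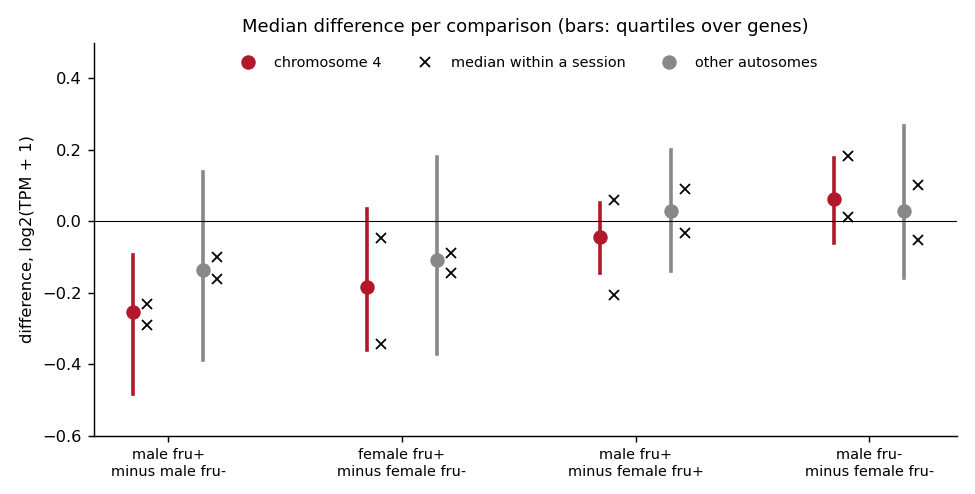
Median difference on the log2(TPM + 1) scale over 72 chromosome 4 genes and over 8288 genes of the other autosomes in 4 comparisons (points, with quartiles over genes as bars), and the median within each sort session (crosses). Between fru+ and fru- cells the chromosome 4 medians are -0.25 in males and -0.18 in females; between the sexes they are -0.05 in fru+ and 0.06 in fru- cells.

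The median difference between males and females was -0.05 over chromosome 4 genes in fru+ cells and 0.06 in fru- cells, against 0.03 on the other autosomes in both. In fru+ cells its sign changed between the sort sessions (-0.21 and 0.06). In fru- cells the chromosome 4 median minus that of the other autosomes was 0.03 with all libraries, -0.12 without male fru- replicate 1 and 0.17 without male fru- replicate 2. Averaged over both kinds of cell it was about 0, with 36 of the 72 genes on each side. The size of the differences, without their sign, was also small: the median was 0.09 between the sexes and 0.28 between fru+ and fru- cells, against 0.15 and 0.25 on the other autosomes, and the median SD between replicates was 0.20 against 0.28.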

How the data were processed

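RNA from about 1 ng per library was made into unstranded poly(A) libraries and read as pairs of 150 nt. Per the labels and the methods, the authors trimmed reads with Trim Galore, used HISAT2 with the dm6 genome, kept uniquely aligned reads, removed duplicates and ran StringTie 2.1.1. The deposited TPM values are recorded as a score, because the assembled loci sum to 1000000 apart from the reference genes, and only reference genes were tested. The FPKM (per length and library size) and coverage (mean depth per base) signal values that the authors deposited served only to derive aligned bases. No counts were used, so that counting errors are not given.

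TPM was summed per gene and log2(TPM + 1) fitted with limma 3.58.1 in R 4.3.3, with a mean per group, a variance trend and Benjamini-Hochberg adjustment, after a test on simulated data. Gene spans came from the deposited start and end positions, and gene types and exons from Ensembl BDGP6. All 77 genes matched an Ensembl gene, and 76 had the same start and end there. P-values measure the spread between 2 biological replicates per group, pooled over the 4 groups in 1 fit of all 8 libraries. The main comparisons within 1 sex thus also draw on the spread in the other sex. Named genes are those past the threshold, the 10 highest, the 6 with the smallest p in each averaged and the 3 in each other comparison, and up to 4 per role list; *pan*, *Eph*, *Arf102F*, *Pof*, the lowest genes, those not tested, those without overlap and the markers were added after their values were seen. Members and lists were chosen with earlier results of these data known.

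The replicate numbers pair the libraries through the shared sort session given in the methods. Replicate deviations correlated at -0.04 to 0.25 between groups over 10111 genes, and at -0.02 to 0.41 over the 72 tested chromosome 4 genes. Alternatives were a pseudocount of 0.1, no filter, scaling by median of ratios, a mean over 10 TPM, the replicate block, no variance trend, only the libraries compared, leaving out each library, and genes at or above the chromosome 4 median in span or level.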

Additional observations from a re-analysis of the deposited data

How the results depend on the processing

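No result changed its direction past the threshold. Between fru+ and fru- cells averaged over the sexes, 3 chromosome 4 genes were called: there was 1 with no filter on low values, 6 with the replicate block, and 1 to 5 when a library was left out. In males the count was 1 with only the 4 libraries and 0 to 1 when a library was left out, and in females 0 to 1. The block changed no other call among chromosome 4 genes.

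When a library was left out, the chromosome 4 median minus that of the other autosomes was -0.205 to -0.0485 for fru+ minus fru- averaged over the sexes, -0.262 to -0.0178 in males, -0.243 to 0.0205 in females, -0.252 to 0.0637 for male minus female in fru+ cells, -0.117 to 0.172 in fru- cells, and -0.119 to 0.0604 for male minus female averaged. For fru+ minus fru- averaged over the sexes, it was -0.0408 for genes of large span and level, 16 of them on chromosome 4. By span alone it was -0.112 and by level alone -0.131, against -0.14 for all genes. The level offset was 3.95 with no filter, 1.12 above a mean of 10 TPM, 1.25 with the left-out genes put back and 1.71 with the same names left out elsewhere. The cause was not tested. With 2 libraries a group, no sample of a group can be called an outlier, and the number of reads behind low genes such as *myo* is not known.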

Other observations

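The loci that StringTie assembled from the reads, which stand apart from the reference genes, included 120 to 135 on chromosome 4 in each library. Of these, 21 to 33 lay outside every reference gene of the chromosome, with a summed level of 212 to 356 TPM. The most abundant such locus began near the same place in 7 of the 8 libraries, with 47.4 to 86.0 TPM (male fru- replicate 2, for example, at chr4:416599-423369, dm6).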
